A study of Mus musculus with 56 samples.

Results

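The TGFβ response of D164A/- cells was measured by RNA-sequencing in 4 of the 56 samples of the series. The members were taken from the sample labels, namely 2 replicates of D164A/- cells cultured with TGFβ and 2 replicates of D164A/- cells cultured without it, both for 4 days. The genotype is that of the source name and mutation fields of these samples, whereas the treatment text of the same labels speaks of Pygo2 lines. The dose comes from that text. D164A/- cells are breast cancer cells from mammary gland tumors of MMTV-PyMT mice on the FVB/N strain, in which the mammary tumor virus promoter drives the polyoma middle T oncogene in mammary epithelium. They carry the D164A point mutation, which abolishes the binding of β-catenin to Bcl9 and Bcl9L, on 1 β-catenin allele. The other, floxed allele was deleted by infection with an adenovirus for Cre and sorting for its fluorescent protein. Treated cells received TGFβ at 2 ng/ml, with fresh TGFβ at each change of medium, and untreated cells were cultured without TGFβ. The response was set against that of fl/fl cells, which have 2 floxed and otherwise unmutated β-catenin alleles, and of D164A/fl cells, which have the mutated allele beside an undeleted floxed allele. Each of them had 2 samples with and 2 without TGFβ. Untreated and treated cells of the 3 genotypes share the PyMT transgene. D164A/- cells therefore differ from fl/fl cells in the mutation, in the number of β-catenin alleles and in the exposure to virus and sorting. These cannot be told apart, nor can a genotype and the line or lines that stand for it. The labels do not say whether replicates were separate lines or cultures. The p-values set each effect against a spread between replicates pooled over 24 samples, which include the Wnt3a experiment of the same 3 genotypes. This spread may be technical.

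TGFβ binds a complex of serine/threonine kinase receptors that phosphorylate Smad2 and Smad3, and these enter the nucleus with Smad4 and change transcription. In mammary epithelial cells this pathway is known for an arrest of the cell cycle, the deposition of extracellular matrix and the epithelial-mesenchymal transition (EMT), in which cells lose cell-cell junctions and gain mesenchymal adhesion and cytoskeletal proteins. β-catenin serves both as a partner of cadherins at these junctions and as a transcriptional coactivator with Tcf/Lef factors in canonical Wnt signaling, where Bcl9 and Bcl9L link it to Pygopus proteins.

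The 4 libraries held 22.4 to 25.9 M reads assigned to genes. In the unit of the table, CPM (reads scaled to an effective library size), 1 read corresponded to 0.037 to 0.044 CPM, and 3 reads, the smallest level counted as detected, lay between 0.11 and 0.13 CPM. Epithelial identity was checked with markers. Of 12 mammary epithelial markers, 11 reached 1 CPM in each of the 4 samples, with summed levels of 2263 and 2645 CPM without and 3486 and 3957 CPM with TGFβ. Krt19 stayed at 0.15 and 0.34 CPM without TGFβ and was at 0 with it. The leukocyte genes Adgre1 and Cd3e, the endothelial genes Tie1, Emcn and Cldn5 and the fibroblast genes Lum, Col3a1 and Thy1 were at 0 in all 4 samples. Some other members of these lists were detected. Fibroblast markers summed to 89.5 to 144 CPM, nearly all of it from Pdgfra, a receptor for platelet-derived growth factor, at 102 and 91.6 CPM without and 109 and 73.8 CPM with TGFβ, and Col1a1, which is given with the collagens. Endothelial markers summed to 0.93 to 1.56 CPM, with Esam at 0.81 and 0.88 CPM without and 0.75 and 0.77 CPM with TGFβ. The sum of 10 leukocyte markers was 1.74 and 2.09 CPM without and 5.11 and 6.74 CPM with TGFβ. Most of this difference lay in Csf1r, the receptor for colony-stimulating factor 1, at 0.12 and 0.3 CPM without and 3 and 3.7 CPM with TGFβ (log2 fold change 1.85 ± 0.45 SE, limma adjusted p = 0.019). Fcer1g was at 0.12 and 0.19 CPM without and 0.71 and 1.47 CPM with TGFβ. Lyz2 was at 0.039 and 0 CPM without and 0.26 and 0.29 CPM with it. Cd68 was at 1.16 and 1.3 CPM without and 1.1 and 1.21 CPM with TGFβ. Of 3 leukocyte markers tested, limma called 1 higher and edgeR called 2. The Csf1r call was lost without any 1 of the 4 libraries (limma adjusted p = 0.073 to 0.16). Ctnnb1, the gene of β-catenin, was at 752 and 775 CPM without and 966 and 1056 CPM with TGFβ, a log2 fold change of 0.40 ± 0.19 (SE; limma adjusted p = 0.31). The point mutation cannot be read from gene counts, so these levels do not check the genotype.

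TGFβ changed 641 of 12868 genes in D164A/- cells, 4.98% of those tested, with 441 genes higher (3.43%) and 200 lower (1.55%). A gene was counted as changed, or called, where its Benjamini-Hochberg adjusted p in limma did not exceed 0.05 and its log2 fold change on log2(CPM + 1) was 1 or more in size. All 641 were separated between the groups, beside 28.9% of genes tested with both treated values above both untreated ones and 29.4% with both below. Fold changes on this scale understate the change of genes of low level. Of the 441 genes that rose, 102 had a mean under 1 CPM in untreated cells, and of the 200 that fell, 53 had a mean under 1 CPM in treated cells. The largest rises were those of Ctla2a, an inhibitor of cysteine proteases (1.12 and 3.35 CPM without and 189.6 and 367 CPM with TGFβ, log2 fold change 6.45 ± 0.42, SE), Ccn4, a matricellular protein known as a Wnt1-induced gene (5.45 ± 0.59), Dgkk, a diacylglycerol kinase (5.38 ± 0.62), the macrophage elastase Mmp12 (5.33 ± 0.60) and Adam12, a membrane-anchored metalloprotease (4.91 ± 0.47). The largest falls were those of the casein gene Csn1s1 (1229.7 and 704 CPM without and 25.1 and 7.22 CPM with TGFβ, log2 fold change -5.99 ± 0.90, SE), the nucleoside transporter Slc28a3 (-5.64 ± 0.71), the mucin Muc15 (-5.51 ± 0.71), the casein gene Csn1s2a (-5.42 ± 0.67) and the acyl-CoA thioesterase Them5 (-5.07 ± 0.41). Their limma adjusted p lay between 2.4e-07 and 0.00054. The untreated replicate 1 weighed most on the count, which was 291 without it, 416 without treated replicate 2, 427 without untreated replicate 2 and 478 without treated replicate 1. With edgeR on whole reads 677 genes were called, of which 555 were among the 641. The count was 998 with the replicate number as a block in the fit, and named genes that gained a call there are listed with the processing.

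Genes were then read by function, in 32 lists with 804 distinct genes tested. Of these, 119 were called, 89 higher and 30 lower, and the number fell to 64 without untreated replicate 1, all of them among the 119. The highest shares of calls were those of the collagens, at 12 of 28, the IGF binding proteins, at 2 of 5, and the milk and luminal genes, at 9 of 23, whereas no gene was called among 38 interferon-stimulated genes or 33 genes of cholesterol and fatty acid synthesis. Over all 12868 genes tested, 4.98% were called and the median log2 fold change was 0, and list counts and medians are read beside these. The lists were chosen with earlier results of these data known, so that their counts and ranking are descriptions. The plot of log2 fold changes by gene function shows the lists.

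**Figure D1:**
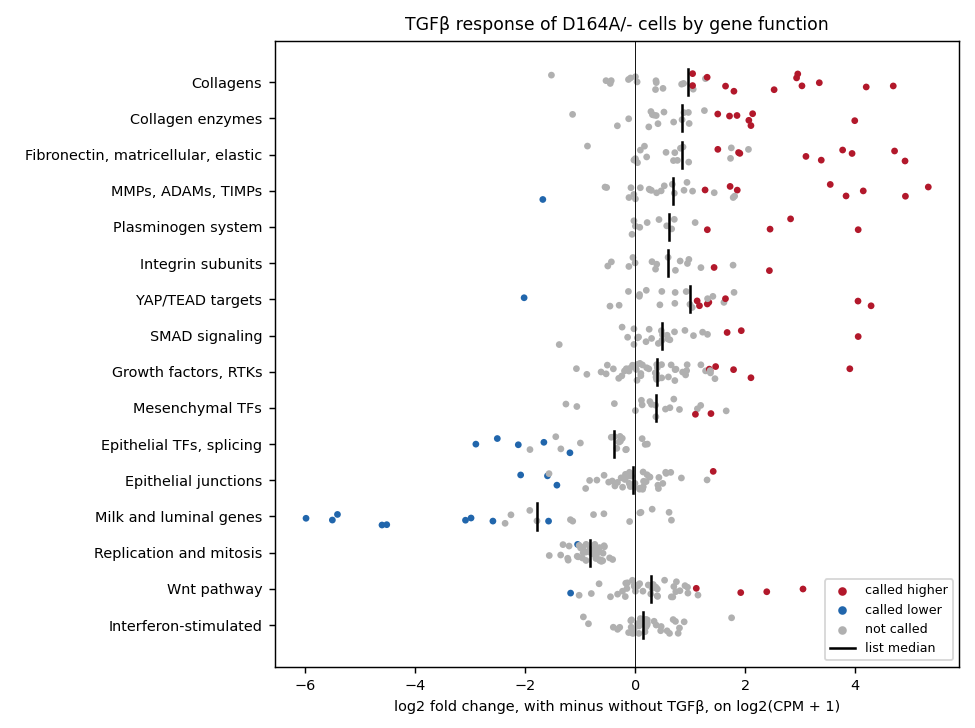
Log2 fold change of TGFβ-treated minus untreated D164A/- cells (x axis, on log2(CPM + 1)) for the members of 16 gene lists (rows); each point is 1 gene, red called higher, blue called lower, grey not called, and a black line marks the list median. Matrix genes lie to the right, with a collagen median of 0.96, and milk and luminal genes to the left, with a median of -1.79. All replication and mitosis genes lie below 0, with 1 called.

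Of 25 genes of SMAD signaling, 3 were higher and none lower (median log2 fold change 0.48, against 0 over all genes). Among them were Smad7, the inhibitory Smad that shuts off the receptor, and Tsc22d1, a TGFβ-induced leucine zipper protein. Smad7 was at 34.7 and 39.8 CPM without and 123 and 118 CPM with TGFβ (log2 fold change 1.67 ± 0.23 SE, limma adjusted p = 0.00025). Tsc22d1 was at 61.3 and 53.4 CPM without and 265 and 183 CPM with TGFβ (log2 fold change 1.93 ± 0.27 SE, limma adjusted p = 0.00032). In both genes both treated samples lay above both untreated samples. The feedback gene Skil (174 and 215 CPM without and 281 and 359 CPM with TGFβ, log2 fold change 0.71 ± 0.42, limma adjusted p = 0.46) did not pass the threshold, although its treated samples were above the untreated ones. The same was seen for the membrane protein Pmepa1, which sequesters Smads (656 and 503 CPM without and 1619 and 883 CPM with TGFβ, 1.06 ± 0.39, limma adjusted p = 0.14).

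Among 22 ligands, latency proteins and receptors of TGFβ, 1 gene rose and 2 fell (median 0.32). Ltbp2, a latent TGFβ binding protein of the matrix, was at 156 and 229 CPM without and 1316 and 1288 CPM with TGFβ (log2 fold change 2.78 ± 0.33 SE, limma adjusted p = 6.9e-05). The ligand gene Tgfb2 was at 46.2 and 38.9 CPM without and 9.65 and 9.68 CPM with TGFβ (log2 fold change -2.02 ± 0.20 SE, limma adjusted p = 1.2e-05). The coreceptor gene Tgfbr3 was at 85.6 and 83.5 CPM without and 40.4 and 15.6 CPM with TGFβ (log2 fold change -1.71 ± 0.31 SE, limma adjusted p = 0.0029). The kinase receptors Tgfbr1 (-0.40 ± 0.56, limma adjusted p = 0.86) and Tgfbr2 (0.53 ± 0.24, limma adjusted p = 0.27) and the ligand Tgfb1 (0.92 ± 0.43, limma adjusted p = 0.28) were not called. Of 14 activins, BMPs and antagonists, 3 rose, namely Bmp1, a procollagen protease rather than a BMP ligand (59.2 and 72.3 CPM without and 297 and 271 CPM with TGFβ, 2.10 ± 0.40, SE), the BMP regulator Bmper (1.55 ± 0.44) and Gdf11, a ligand of activin receptors (1.32 ± 0.35). The Bmp1 call was lost without untreated replicate 1 (limma adjusted p = 0.062). That of Bmper was lost without treated replicate 2 (limma adjusted p = 0.36), untreated replicate 1 (limma adjusted p = 0.41) or untreated replicate 2 (limma adjusted p = 0.075). That of Gdf11 was lost without any 1 of the 4 libraries (limma adjusted p = 0.088 to 0.23) and in edgeR. The antagonist of activins Fst was at 8.72 and 21.3 CPM without and 30.2 and 16.0 CPM with TGFβ, with overlapping groups. Tgfbr3, Bmper and Gdf11 lost the call in the fit of the 4 samples alone (limma adjusted p = 0.055 to 0.13). Gdf11 lost the call with a pseudocount of 0.1 (limma adjusted p = 0.053). Bmper and Gdf11 lost the call without the filter on low values (limma adjusted p = 0.0504 to 0.072).

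The promoters of Ltbp2 and of Cdkn2b, the gene of an inhibitor of cyclin-dependent kinases that is described with the cell cycle genes, are shown because both genes rose and both windows hold the letters CAGAC, part of the Smad binding element. The sequences are the 250 bases before the start given in the RefSeq promoter table in GRCm38.p6, less any base inside the RefSeq gene, 5′ to 3′ on the strand of the gene, and the capitals mark CAGAC or its reverse complement GTCTG. The Ltbp2 sequence lies at chr12:84876559-84876741 on the minus strand, where 67 bases were left out because the gene reaches beyond that start, with matches that begin 205 and 176 bases before it. The Cdkn2b sequence lies at chr4:89311033-89311282 on the minus strand, with 1 match that begins 129 bases before its start.
Ltbp2: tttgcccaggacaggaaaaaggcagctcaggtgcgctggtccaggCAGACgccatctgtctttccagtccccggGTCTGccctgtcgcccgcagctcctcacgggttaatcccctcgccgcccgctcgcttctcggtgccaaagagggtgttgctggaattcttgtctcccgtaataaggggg
Cdkn2b: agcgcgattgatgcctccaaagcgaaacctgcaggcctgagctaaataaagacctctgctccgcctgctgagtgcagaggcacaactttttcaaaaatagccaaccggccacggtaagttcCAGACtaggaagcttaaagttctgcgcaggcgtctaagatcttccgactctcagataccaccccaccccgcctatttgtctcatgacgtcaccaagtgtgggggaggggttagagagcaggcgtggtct
These 5 letters were found on either strand in 42.2% of all 32851 promoter windows of 250 bases, in 40.5% of the windows of genes tested, in 44.5% of the 420 windows of genes that rose and in 47.9% of the 192 windows of genes that fell, so that a match is a description of these windows. Promoters of Ccn2, Fn1, Smad7 and Cdh2 were not used here.

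Of 28 collagen genes tested, 12 rose and none fell (median 0.96), against 6 in the fit of the 4 samples alone, and 17 of the 28 had an unadjusted p under 0.05. Col10a1, the short-chain collagen of hypertrophic cartilage, was at 0.039 and 0.038 CPM without and 48.9 and 13.4 CPM with TGFβ, where the untreated values were 1 read each (log2 fold change 4.69 ± 0.36 SE, limma adjusted p = 9.9e-07). Col2a1, the fibrillar collagen of cartilage, was at 0.46 and 0.3 CPM without and 61.1 and 9.35 CPM with TGFβ (log2 fold change 4.197 ± 0.56 SE, limma adjusted p = 0.0002). Both genes were higher in treated replicate 1 than in treated replicate 2, and both treated samples lay above the untreated ones. Col18a1, a basement membrane collagen that gives rise to endostatin, was at 30.8 and 50.4 CPM without and 412 and 407 CPM with TGFβ (log2 fold change 3.34 ± 0.52 SE, limma adjusted p = 0.00071). Col12a1, which associates with collagen fibrils, was at 63.2 and 76.7 CPM without and 575 and 576 CPM with TGFβ (log2 fold change 3.03 ± 0.23 SE, limma adjusted p = 9.9e-07). Col1a1, a chain of type I collagen, was at 3.09 and 3.43 CPM without and 35.0 and 15.6 CPM with TGFβ (log2 fold change 2.52 ± 0.40 SE, limma adjusted p = 0.00082), whereas the partner chain Col1a2 stayed at or under 0.11 CPM in all 4 samples. The basement membrane collagen Col4a1 was at 0.077 and 0.57 CPM without and 0.57 and 0.81 CPM with TGFβ and was not called. The other collagen genes that rose were Col7a1, Col8a1, Col8a2, Col11a1, Col11a2, Col14a1 and Col27a1, with log2 fold changes between 1.04 and 2.95. The Col8a1 call was lost without treated replicate 2 or untreated replicate 1 (limma adjusted p = 0.091 to 0.13). The Col11a1 call was lost without any 1 of treated replicate 1, untreated replicate 1 and untreated replicate 2 (limma adjusted p = 0.092 to 0.17). The Col11a2 call was lost without any 1 of the 4 libraries (limma adjusted p = 0.12 to 0.31). The Col14a1 call was lost without treated replicate 2 or untreated replicate 1 (log2 fold change 0.88 and 0.83). Col1a1, Col2a1, Col11a1, Col14a1, Col8a1 and Col8a2 lost the call in the fit of the 4 samples alone (limma adjusted p = 0.054 to 0.1). Col11a2 and Col14a1 lost the call in edgeR (edgeR adjusted p = 0.068 to 0.13). Col11a2 lost the call with a pseudocount of 0.1, without the filter on low values and with the GC trend removed (limma adjusted p = 0.056 to 0.22).

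Of 23 enzymes and chaperones that modify collagen, 7 rose and none fell (median 0.85). The lysyl oxidase Loxl3, which cross-links collagen and elastin, was at 4.17 and 8.27 CPM without and 138 and 85.8 CPM with TGFβ (log2 fold change 3.99 ± 0.47 SE, limma adjusted p = 5.9e-05). The galactosyltransferase Colgalt2 was at 0.27 and 0.19 CPM without and 6 and 3.15 CPM with TGFβ (log2 fold change 2.13 ± 0.17 SE, limma adjusted p = 1.1e-06). The prolyl and lysyl hydroxylases P4ha1 (1.71), P3h1 (1.497) and Plod1 (1.85) also rose. Lox itself remained at 0.077 and 0.038 CPM without and 0.088 and 0.44 CPM with TGFβ, and Loxl2 at 0 and 0.076 CPM without and 0.44 and 0.15 CPM with TGFβ. The collagen chaperone Serpinh1 was at 125 and 156 CPM without and 274 and 245 CPM with TGFβ, with a log2 fold change of 0.88 ± 0.31 that was not called (limma adjusted p = 0.12). The P4ha1 call was lost without untreated replicate 1 (limma adjusted p = 0.084). The P3h1 call was lost without treated replicate 1 or untreated replicate 1 (limma adjusted p = 0.085 to 0.1). The Plod1 call was lost without any 1 of treated replicate 1, untreated replicate 1 and untreated replicate 2 (limma adjusted p = 0.063 to 0.17). P3h1 and Plod1 lost the call in the fit of the 4 samples alone (limma adjusted p = 0.072).

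Of 28 genes of fibronectin, matricellular and elastic fiber proteins, 9 rose and none fell (median 0.84). Fn1, the fibronectin gene and a common marker of EMT (chr1:71585473-71653280 in GRCm38), was at 80.4 and 259.8 CPM without and 2535 and 7494 CPM with TGFβ (log2 fold change 4.90 ± 0.66 SE, limma adjusted p = 0.00019). Replicate 2 was the higher one in each group, and the lower treated value was still well above the highest untreated value. Tnc, the gene of tenascin C, was at 175 and 259 CPM without and 2599.7 and 4153 CPM with TGFβ (log2 fold change 3.94 ± 0.31 SE, limma adjusted p = 9.9e-07). Postn, the gene of periostin, was at 10.2 and 12.5 CPM without and 492 and 210.0 CPM with TGFβ (log2 fold change 4.71 ± 0.82 SE, limma adjusted p = 0.0018). The proteoglycan Ogn, also called osteoglycin or mimecan, was at 0.42 and 0.15 CPM without and 18.6 and 14.6 CPM with TGFβ (log2 fold change 3.77 ± 0.16 SE, limma adjusted p = 1.3e-09). Thbs1, a thrombospondin that can activate latent TGFβ (3.10 ± 0.38), and the hyaluronan synthase Has2 (3.38 ± 0.85) rose too. The matricellular gene Sparc was at 3.67 and 4.95 CPM without and 16.4 and 16.6 CPM with TGFβ and missed the threshold (1.73 ± 0.50, limma adjusted p = 0.051). Decorin, Dcn, was at 0 in 3 samples and at 0.13 CPM in treated replicate 1. The Has2 call was lost without treated replicate 2 or untreated replicate 1 (limma adjusted p = 0.28 to 0.29). Fn1 and Has2 lost the call in the fit of the 4 samples alone (limma adjusted p = 0.06 to 0.12). Sparc gained a call in the fit of the 4 samples alone (limma adjusted p = 0.04).

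**Figure D2:**
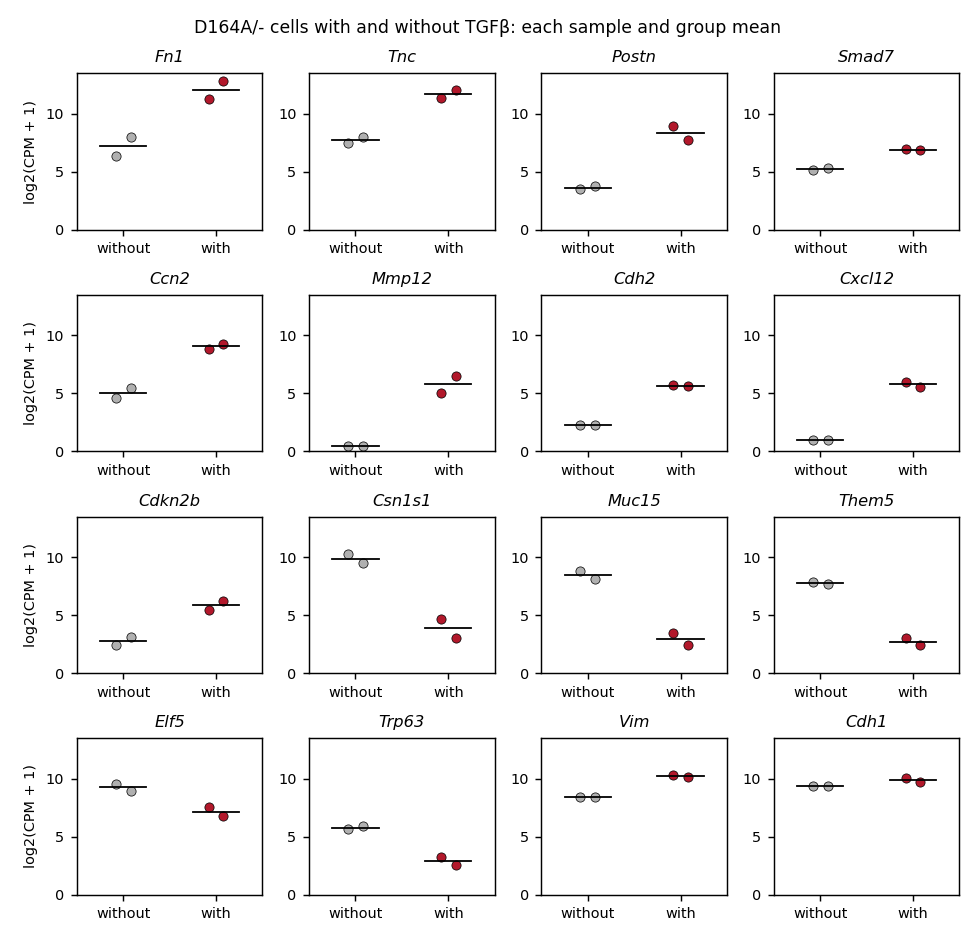
Levels of 16 genes in D164A/- cells without (grey) and with (red) TGFβ as log2(CPM + 1) on the y axis; each point is 1 of 2 samples per group and the line is their mean. The groups do not overlap in any of the 16 genes; Vim and Cdh1 were not called, with log2 fold changes of 1.82 and 0.50.

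Proteases and their inhibitors changed in the same samples. Among 30 matrix metalloproteinases, ADAM proteases and TIMPs, 8 rose and 1 fell (median 0.69). Mmp12 was at 0.35 and 0.38 CPM without and 31.0 and 92.6 CPM with TGFβ (log2 fold change 5.33 ± 0.60 SE, limma adjusted p = 4.6e-05). The gelatinase Mmp9 was at 0.039 and 0.076 CPM without and 7.01 and 42.6 CPM with TGFβ (log2 fold change 4.14 ± 0.68 SE, limma adjusted p = 0.0011). Adam12 was at 2.7 and 4.53 CPM without and 92.8 and 196 CPM with TGFβ (log2 fold change 4.91 ± 0.47 SE, limma adjusted p = 7.1e-06). Treated replicate 2 exceeded treated replicate 1 in all 3 genes. The membrane-type collagenase Mmp14 was at 73.8 and 77.7 CPM without and 203 and 166 CPM with TGFβ (log2 fold change 1.27 ± 0.29 SE, limma adjusted p = 0.015). This Mmp14 call was lost without treated replicate 1 (limma adjusted p = 0.13), untreated replicate 1 (limma adjusted p = 0.12) or untreated replicate 2 (limma adjusted p = 0.074). Mmp10, Mmp13, Adamts4 and the inhibitor Timp2 rose with log2 fold changes between 1.72 and 3.83, and Adamts9, a protease of proteoglycans, fell (23.97 and 40.7 CPM without and 7.67 and 10.6 CPM with TGFβ, -1.68 ± 0.30, SE). The gelatinase Mmp2 was at 1.12 and 1.18 CPM without and 4.89 and 0.99 CPM with TGFβ, with overlapping groups. In the plasminogen system 4 of 14 genes rose and none fell (median 0.61). Among these were the urokinase gene Plau (4.09 and 5.87 CPM without and 21.2 and 45.9 CPM with TGFβ, 2.45 ± 0.49, SE), the antiangiogenic serpin Serpinf1 (0.23 and 0.3 CPM without and 8.91 and 7.11 CPM with TGFβ, 2.82 ± 0.31) and the protease nexin Serpine2 (1.31). The Plau call was lost without treated replicate 2 (limma adjusted p = 0.094) or untreated replicate 1 (limma adjusted p = 0.08). The urokinase receptor Plaur was at 6.72 and 14.97 CPM without and 11.7 and 16.6 CPM with TGFβ and was not called. The Mmp13 call was lost without any 1 of treated replicate 2, untreated replicate 1 and untreated replicate 2 (limma adjusted p = 0.079 to 0.19). The Adamts4 call was lost without treated replicate 2 or untreated replicate 1 (limma adjusted p = 0.064 to 0.1). The Timp2 call was lost without treated replicate 1 or untreated replicate 1 (limma adjusted p = 0.088 to 0.09). The Serpine2 call was lost without any 1 of treated replicate 1, untreated replicate 1 and untreated replicate 2 (limma adjusted p = 0.062 to 0.21). Mmp9, Plau, Adamts9, Adamts4 and Serpine2 lost the call in the fit of the 4 samples alone (limma adjusted p = 0.061 to 0.083).

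Of 17 integrin subunits, 2 rose and none fell (median 0.59), namely Itgb5, a vitronectin receptor subunit that can activate latent TGFβ (49.2 and 57.9 CPM without and 314 and 274 CPM with TGFβ, 2.44 ± 0.41, SE), and the laminin receptor subunit Itga7 (0.42 and 0.65 CPM without and 4.1 and 2.35 CPM with TGFβ, 1.43 ± 0.27). The Itga7 call was lost without treated replicate 1 (limma adjusted p = 0.056) or untreated replicate 1 (limma adjusted p = 0.054). The fibronectin receptor subunit Itga5 was at 13.55 and 19.2 CPM without and 32.2 and 31.8 CPM with TGFβ, with an adjusted p of 0.021 in limma and a log2 fold change of 0.95 ± 0.23. This is just under the limit of 1, and Itga5 was called without untreated replicate 2, at 1.18. Itgb3 was at 144 and 119 CPM without and 603 and 338 CPM with TGFβ and missed the threshold (1.78 ± 0.53, limma adjusted p = 0.056). Among 9 laminins only Lamb1 was called (144 and 184 CPM without and 391 and 418 CPM with TGFβ, 1.30 ± 0.27, SE), and its call was lost without treated replicate 2 (limma adjusted p = 0.064) or untreated replicate 1 (limma adjusted p = 0.11). In the list of the cadherin switch, vimentin and contractile cytoskeleton, 5 of 30 genes rose and none fell (median 0.33). Cdh2, the gene of N-cadherin, was at 3.94 and 3.96 CPM without and 51.9 and 47.8 CPM with TGFβ (log2 fold change 3.36 ± 0.27 SE, limma adjusted p = 1.6e-06), with replicates close together in both groups. Lmcd1, a LIM protein (2.61 ± 0.34), the scaffold Pdlim7 (1.81 ± 0.37), the actin-binding Synpo (1.45 ± 0.37) and the myosin kinase Mylk (1.41 ± 0.36) also rose. The Pdlim7 call was lost without treated replicate 1 (limma adjusted p = 0.052) or untreated replicate 1 (limma adjusted p = 0.1). Vimentin, Vim, was at 350.3 and 338 CPM without and 1293 and 1139 CPM with TGFβ. Its log2 fold change of 1.82 ± 0.56 was not called in the fit of 24 samples (limma adjusted p = 0.069). The Synpo call was lost without any 1 of the 4 libraries (limma adjusted p = 0.084 to 0.22). The Mylk call was lost without any 1 of treated replicate 1, untreated replicate 1 and untreated replicate 2 (limma adjusted p = 0.11 to 0.34). Lmcd1, Itga7 and Mylk lost the call in the fit of the 4 samples alone (limma adjusted p = 0.062 to 0.15). Vim gained a call in the fit of the 4 samples alone (limma adjusted p = 0.027). Mylk lost the call with a pseudocount of 0.1 (limma adjusted p = 0.051).

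Of 25 target genes of YAP and TEAD, which read tension and cell density, 7 rose and 1 fell (median 0.99), against 3 and 1 in the fit of the 4 samples alone. The gene that fell was Tgfb2. Ccn2, or connective tissue growth factor, was at 23.3 and 42.7 CPM without and 469 and 616 CPM with TGFβ (log2 fold change 4.05 ± 0.36 SE, limma adjusted p = 3.7e-06). Nt5e, the ecto-5′-nucleotidase CD73, was at 5.75 and 11.8 CPM without and 133 and 244 CPM with TGFβ (log2 fold change 4.29 ± 0.56 SE, limma adjusted p = 0.00014). Asap1, Ajuba, Lats2, Crim1 and Fjx1 rose with log2 fold changes between 1.12 and 1.64. The Asap1 call was lost without untreated replicate 1 (limma adjusted p = 0.06). Ccn1 (81.3 and 164.4 CPM without and 267 and 357 CPM with TGFβ, 1.41 ± 0.44, limma adjusted p = 0.075) and Ankrd1 (1.62 and 13.7 CPM without and 6.74 and 45.3 CPM with TGFβ, 1.61 ± 0.78, limma adjusted p = 0.31), used most often as readouts beside Ccn2, did not pass. In Ankrd1 the groups overlapped. The Ajuba call was lost without treated replicate 2 or untreated replicate 1 (limma adjusted p = 0.17 to 0.26). The Crim1 call was lost without treated replicate 2 or untreated replicate 1 (limma adjusted p = 0.11 to 0.14). The Fjx1 call was lost without any 1 of the 4 libraries (limma adjusted p = 0.055 to 0.3). Asap1, Ajuba, Crim1 and Fjx1 lost the call in the fit of the 4 samples alone (limma adjusted p = 0.051 to 0.14). Fjx1 lost the call in edgeR, with a pseudocount of 0.1, without the filter on low values and with the GC trend removed (limma and edgeR adjusted p = 0.053 to 0.17).

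Of 19 mesenchymal factors, 2 rose and none fell (median 0.37), namely Ets1 (116 and 161 CPM without and 373 and 338 CPM with TGFβ, 1.37 ± 0.22, SE, limma adjusted p = 0.00083) and Runx1 (143 and 116 CPM without and 306 and 248 CPM with TGFβ, 1.09 ± 0.25, limma adjusted p = 0.013). The Runx1 call was lost without treated replicate 1 (limma adjusted p = 0.13) or untreated replicate 2 (limma adjusted p = 0.13). Snai1 was at 6.45 and 12.8 CPM without and 18.0 and 15.4 CPM with TGFβ, and Snai2 at 5.6 and 5.1 CPM without and 1.23 and 2.13 CPM with TGFβ. Zeb1 was at 0.39 and 0.38 CPM without and 1.37 and 2.86 CPM with TGFβ, and Zeb2 at 1.51 and 1.56 CPM without and 2.73 and 7.92 CPM with TGFβ. Twist1 was at 15.02 and 19.5 CPM without and 18.0 and 19.4 CPM with TGFβ. None of these 5 EMT repressors of E-cadherin was called, with limma adjusted p between 0.14 and 0.91. Snai2 was lower in both treated samples whereas Snai1, Zeb1 and Zeb2 were higher in both. Runx1 lost the call in the fit of the 4 samples alone (limma adjusted p = 0.058).

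Of 21 epithelial factors and splicing regulators, 5 were lower and none higher (median -0.38), and 18 of the 21 had a negative log2 fold change. Trp63, the basal factor p63, was at 50.4 and 59.2 CPM without and 8.51 and 4.84 CPM with TGFβ (log2 fold change -2.90 ± 0.39 SE, limma adjusted p = 0.0002). Ehf, an epithelial ETS factor, was at 359.8 and 264 CPM without and 52.4 and 54.0 CPM with TGFβ (log2 fold change -2.51 ± 0.34 SE, limma adjusted p = 0.00024). Elf5, the ETS factor of the alveolar lineage, was at 768 and 497 CPM without and 183 and 107 CPM with TGFβ (log2 fold change -2.13 ± 0.39 SE, limma adjusted p = 0.0026). Both treated samples lay below both untreated samples for each of them. Ovol1, which restrains EMT, was at 6.1 and 8.61 CPM without and 1.28 and 1.98 CPM with TGFβ (log2 fold change -1.66 ± 0.42 SE, limma adjusted p = 0.025). The RNA-binding protein Rbm47 was at 62.5 and 52.6 CPM without and 30.4 and 19.8 CPM with TGFβ (-1.19 ± 0.28, SE). The Elf5 call was lost without treated replicate 2 (limma adjusted p = 0.051) or untreated replicate 1 (limma adjusted p = 0.061). The Ovol1 call was lost without any 1 of the 4 libraries (limma adjusted p = 0.072 to 0.19). The factor Grhl2 (165 and 169 CPM without and 129.9 and 134 CPM with TGFβ) and the splicing regulator Esrp1 (449.6 and 412 CPM without and 372 and 358 CPM with TGFβ) were not called. The Rbm47 call was lost without any 1 of treated replicate 2, untreated replicate 1 and untreated replicate 2 (limma adjusted p = 0.051 to 0.18). Ovol1, Elf5 and Rbm47 lost the call in the fit of the 4 samples alone (limma adjusted p = 0.051 to 0.086).

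Of 44 genes of epithelial junctions and polarity, 3 fell and 1 rose (median -0.05). This was 9.09% of the list, beside 4.98% of all genes tested, of which 1.55% fell. Occludin, Ocln, was at 39.1 and 39.7 CPM without and 12.7 and 11.9 CPM with TGFβ (log2 fold change -1.60 ± 0.29 SE, limma adjusted p = 0.0023). The tight junction gene Cldn1 was at 4.4 and 6.28 CPM without and 0.44 and 0.51 CPM with TGFβ (-2.09 ± 0.54, SE). The desmosomal linker Ppl was at 46.7 and 60.1 CPM without and 18.8 and 19.4 CPM with TGFβ (-1.43 ± 0.36). The desmosomal plakophilin Pkp1 was at 160.2 and 218 CPM without and 487 and 513 CPM with TGFβ (1.41 ± 0.39). The calls of Cldn1, Ppl and Pkp1 were each lost without any 1 of the 4 libraries (limma adjusted p = 0.11 to 0.19, 0.085 to 0.18 and 0.086 to 0.33). E-cadherin, Cdh1, was at 663 and 659.7 CPM without and 1051 and 830.1 CPM with TGFβ, higher in both treated samples and not called (0.50 ± 0.25, limma adjusted p = 0.35). Epcam was at 445 and 461 CPM without and 511 and 490.3 CPM with TGFβ and was not called (0.14 ± 0.20). A missed threshold does not show that the level stayed the same. Of 15 keratins, 2 rose and 2 fell. Krt15, of basal cells, was at 82.1 and 62.0 CPM without and 2.69 and 0.77 CPM with TGFβ (log2 fold change -4.82 ± 0.63 SE, limma adjusted p = 0.00015). Krt23 fell from 1.51 and 1.14 CPM to 0.088 and 0.037 CPM. Krt80 (1.47 and 3.05 CPM without and 9.83 and 17.2 CPM with TGFβ, 2.15 ± 0.38) and the simple epithelial Krt7 (139.8 and 208 CPM without and 447 and 877 CPM with TGFβ, 1.87 ± 0.51) rose. The Krt80 call was lost without untreated replicate 1 (limma adjusted p = 0.055), and the Krt7 call without treated replicate 2 (limma adjusted p = 0.31), untreated replicate 1 (limma adjusted p = 0.31) or untreated replicate 2 (limma adjusted p = 0.084). Krt8, Krt18, Krt14 and Krt5 were not called. Krt5 was at 9.38 and 11.5 CPM without and 1.06 and 1.03 CPM with TGFβ, a log2 fold change of -2.48 ± 0.92 (limma adjusted p = 0.15). Krt80 and Krt7 lost the call in the fit of the 4 samples alone (limma adjusted p = 0.069 to 0.088). Krt5 gained a call in the fit of the 4 samples alone (limma adjusted p = 0.027). Pkp1 and Krt7 lost the call without the filter on low values (limma adjusted p = 0.055 to 0.056).

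Of 23 genes of milk proteins and luminal differentiation, 9 fell and none rose. Their median of -1.79 was the lowest of the 32 lists. Csn1s1, or α-casein (chr5:87666208-87682578 in GRCm38), was at 1229.7 and 704 CPM without and 25.1 and 7.22 CPM with TGFβ (log2 fold change -5.99 ± 0.90 SE, limma adjusted p = 0.00054). Csn1s2a, another casein gene, was at 97.4 and 55.3 CPM without and 1.28 and 0.33 CPM with TGFβ (log2 fold change -5.42 ± 0.67 SE, limma adjusted p = 9.2e-05). Csn2, or β-casein (chr5:87692619-87699429), was at 32.8 and 18.9 CPM without and 0.13 and 0 CPM with TGFβ (log2 fold change -4.61 ± 0.41 SE, limma adjusted p = 3.7e-06), where the treated samples held 3 reads and 0 reads. All 3 genes were separated between the groups by far more than between the replicates. Muc15 was at 443 and 268 CPM without and 9.79 and 4.32 CPM with TGFβ (log2 fold change -5.51 ± 0.71 SE, limma adjusted p = 0.00013). Lalba, or α-lactalbumin, which forms the lactose synthase, was at 18.8 and 10.6 CPM without and 1.98 and 0.22 CPM with TGFβ (-2.99 ± 0.43, SE). Wfdc18, a secreted protein with a WAP domain, was at 365 and 375 CPM without and 17.3 and 13.2 CPM with TGFβ (-4.52 ± 0.67). Kit, a receptor of luminal progenitors (-3.09 ± 0.53), lactoferrin, Ltf (-2.59 ± 0.64), and Muc1 (-1.58 ± 0.31) fell as well. The micelle-stabilizing casein Csn3 was at 5387 and 4582 CPM without and 1565 and 1099 CPM with TGFβ, and its log2 fold change of -1.92 ± 0.86 was not called (limma adjusted p = 0.26). The prolactin receptor Prlr was at 265 and 199 CPM without and 55.9 and 39.5 CPM with TGFβ and missed the threshold (-2.26 ± 0.70, limma adjusted p = 0.066). Outside the list, Them5 was at 230.0 and 202 CPM without and 7.01 and 4.21 CPM with TGFβ (log2 fold change -5.07 ± 0.41 SE, limma adjusted p = 1.7e-06). Slc28a3 was at 76.1 and 46.6 CPM without and 0.18 and 0.26 CPM with TGFβ (log2 fold change -5.64 ± 0.71 SE, limma adjusted p = 0.00011). The Ltf call was lost without any 1 of the 4 libraries (limma adjusted p = 0.093 to 0.14). The Muc1 call was lost without treated replicate 2 or untreated replicate 1 (limma adjusted p = 0.057 to 0.07). Lalba and Muc1 lost the call in the fit of the 4 samples alone (limma adjusted p = 0.0501 to 0.069). Prlr gained a call in the fit of the 4 samples alone (limma adjusted p = 0.035). Lalba lost the call in edgeR (edgeR adjusted p = 0.16).

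The promoters of Csn1s1 and Csn2 are shown because the genes lie in the same casein cluster on chromosome 5, both fell, and their windows each hold TTCNNNGAA, the palindrome read by STAT factors, which carry the prolactin signal in mammary cells. The 250 bases before the start in the RefSeq promoter table in GRCm38.p6 are given, less 4 bases of Csn2 inside the gene, 5′ to 3′ on the strand of the gene, with the match in capitals. The Csn1s1 sequence lies at chr5:87665958-87666207 on the plus strand, with the match starting 100 bases before that start. The Csn2 sequence lies at chr5:87699430-87699675 on the minus strand, with the match starting 93 bases before it.
Csn1s1: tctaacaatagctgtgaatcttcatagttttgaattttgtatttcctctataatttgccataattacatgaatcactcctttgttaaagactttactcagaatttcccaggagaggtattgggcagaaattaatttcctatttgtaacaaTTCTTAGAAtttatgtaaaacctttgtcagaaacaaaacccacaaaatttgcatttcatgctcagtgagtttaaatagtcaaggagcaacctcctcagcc
Csn2: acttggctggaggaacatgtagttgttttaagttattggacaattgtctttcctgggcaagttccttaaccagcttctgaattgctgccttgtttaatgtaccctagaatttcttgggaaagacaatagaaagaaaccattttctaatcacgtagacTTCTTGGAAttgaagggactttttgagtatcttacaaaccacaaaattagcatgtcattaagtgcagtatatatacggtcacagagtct
The motif, which reads the same on both strands, was present in 7.02% of all 32851 windows, in 6.77% of the 192 windows of genes that fell and in 6.19% of the 420 windows of genes that rose. The AP-1 motif TGANTCA was present in 6.75% of all windows, 7.62% of those of genes that rose and 9.38% of those of genes that fell. Among the genes tested these shares were 5.93% for TTCNNNGAA and 4.99% for TGANTCA. Of the 641 genes called, 479 had a promoter in the RefSeq table.

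Untreated levels of some milk genes and of Elf5 are given in the 3 genotypes as a description, with no test. Without TGFβ, Csn1s1 was at 1229.7 and 704 CPM in D164A/- cells, at 6.26 and 5.82 CPM in D164A/fl cells and at 0.2 and 0 CPM in fl/fl cells. Csn3 was at 5387 and 4582 CPM, 39.8 and 34.2 CPM and 0.52 and 0.15 CPM in the same order. Elf5 was at 768 and 497 CPM in D164A/- cells, 7.11 and 13.4 CPM in D164A/fl cells and 6.44 and 5.88 CPM in fl/fl cells. The plot of milk and epithelial genes by genotype gives each sample.

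**Figure D3:**
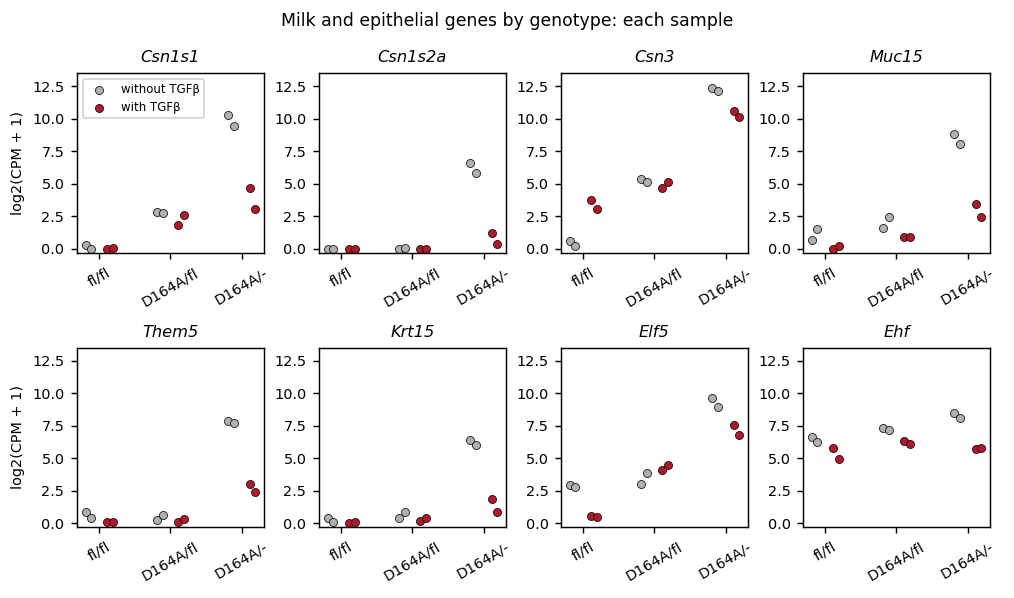
Levels of 8 milk and epithelial genes as log2(CPM + 1) on the y axis in fl/fl, D164A/fl and D164A/- cells without (grey) and with (red) TGFβ; each point is 1 sample, 2 per group. Untreated D164A/- cells are highest in each of the 8 genes, with Csn1s1 at 1229.7 and 704 CPM, and treated D164A/- cells lie below them.

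Genes of replication and mitosis had lower values with TGFβ, with 1 call. All 38 genes of DNA replication and mitosis had a negative log2 fold change (median -0.82), 17 had an unadjusted p under 0.05, and 1 was called, the replication factor Gins1 (21.4 and 16.6 CPM without and 7.05 and 10.4 CPM with TGFβ, -1.05 ± 0.26, SE). The Gins1 call was lost without treated replicate 1 (limma adjusted p = 0.23) or untreated replicate 1 (limma adjusted p = 0.24). The proliferation marker Mki67 was at 1102 and 897 CPM without and 265 and 423 CPM with TGFβ (-1.57 ± 0.95, limma adjusted p = 0.47). Its error draws on all 24 samples of the fit, among them untreated D164A/- cells of the Wnt3a experiment at 932 and 163 CPM. Mki67 gained a call with the replicate number as a block in the fit. Top2a was at 945 and 901 CPM without and 373 and 600.3 CPM with TGFβ (-0.96 ± 0.69, limma adjusted p = 0.58). Pcna was at 155 and 146 CPM without and 81.5 and 99.2 CPM with TGFβ (-0.74 ± 0.23, limma adjusted p = 0.074). In all 3 the treated samples lay below the untreated ones. In bulk RNA a lower share of cycling cells and less of these transcripts per cell cannot be told apart. Of 18 cyclin-dependent kinase inhibitors and Myc genes, 2 rose. Cdkn2b, or p15, an inhibitor long known as a TGFβ target, was at 4.32 and 7.77 CPM without and 42.4 and 74.2 CPM with TGFβ (log2 fold change 3.06 ± 0.38 SE, limma adjusted p = 9e-05). Mycn, a Myc family gene, was at 0.31 and 0.34 CPM without and 2.91 and 2.93 CPM with TGFβ (log2 fold change 1.56 ± 0.16 SE, limma adjusted p = 1.3e-05). Cdkn1a, or p21, was at 57.8 and 73.7 CPM without and 113 and 105 CPM with TGFβ (0.73 ± 0.30, limma adjusted p = 0.21). Myc was at 41.3 and 65.6 CPM without and 48.3 and 59.1 CPM with TGFβ with overlapping groups. Of 21 apoptosis regulators 2 rose, the death receptor Fas (5.87 and 5.56 CPM without and 21.4 and 17.6 CPM with TGFβ, 1.61 ± 0.33, SE) and the BH3 protein Bid (46.2 and 55.0 CPM without and 115 and 100.2 CPM with TGFβ, 1.07 ± 0.20). The Fas call was lost without treated replicate 1 (limma adjusted p = 0.063), untreated replicate 1 (limma adjusted p = 0.055) or untreated replicate 2 (limma adjusted p = 0.052). The Bid call was lost without treated replicate 1 (log2 fold change 0.98) or untreated replicate 1 (limma adjusted p = 0.061). Gins1 lost the call in the fit of the 4 samples alone (limma adjusted p = 0.11). Gins1 had a log2 fold change of -0.93, under the limit of 1, with the GC trend removed. Bid had a log2 fold change of 0.998, under the limit of 1, with the GC trend removed.

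Of 42 Wnt pathway genes tested, 4 rose and 1 fell (median 0.29). The ligand gene Wnt9a was at 2.43 and 2.93 CPM without and 28.0 and 30.8 CPM with TGFβ (log2 fold change 3.05 ± 0.33 SE, limma adjusted p = 2.9e-05). Porcn, the acyltransferase that Wnt ligands need for secretion, was at 2.16 and 2.44 CPM without and 18.1 and 14.6 CPM with TGFβ (log2 fold change 2.39 ± 0.34 SE, limma adjusted p = 0.00035). The cytoplasmic inhibitor Nkd2 was at 83.6 and 102 CPM without and 456 and 271 CPM with TGFβ (1.92 ± 0.53, SE). The transcription factor Lef1 was at 1.93 and 1.37 CPM without and 7.27 and 2.9 CPM with TGFβ (1.11 ± 0.26). The ubiquitin ligase Rnf43, which removes Frizzled receptors, was at 14.9 and 13.1 CPM without and 6.7 and 4.65 CPM with TGFβ (-1.18 ± 0.28). The Nkd2 call was lost without any 1 of the 4 libraries (limma adjusted p = 0.077 to 0.31). The Lef1 call was lost without treated replicate 1 (limma adjusted p = 0.24), untreated replicate 1 (limma adjusted p = 0.06) or untreated replicate 2 (limma adjusted p = 0.15). The Rnf43 call was lost without treated replicate 2 (limma adjusted p = 0.17), untreated replicate 1 (limma adjusted p = 0.15) or untreated replicate 2 (limma adjusted p = 0.065). Both calls were lost in edgeR. Axin2, the usual target of β-catenin and Tcf, lay near the limit of detection at 0.039 and 0.38 CPM without and 0.088 and 0.4 CPM with TGFβ, with overlapping groups. The cofactor genes Bcl9 (39.2 and 44.4 CPM without and 57.9 and 50.9 CPM with TGFβ) and Bcl9l (91.4 and 125 CPM without and 143 and 78.1 CPM with TGFβ) and the factor Tcf7 (29.3 and 31.5 CPM without and 36.2 and 39.4 CPM with TGFβ) were not called. Lef1, Rnf43 and Nkd2 lost the call in the fit of the 4 samples alone (limma adjusted p = 0.055 to 0.19). Lef1 and Rnf43 lost the call with a pseudocount of 0.1 (limma adjusted p = 0.099 to 0.12). Nkd2 lost the call without the filter on low values (limma adjusted p = 0.062).

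Of 52 growth factors and receptor tyrosine kinases, 6 rose and none fell (median 0.39). Pdgfb was at 6.56 and 11.3 CPM without and 143 and 143 CPM with TGFβ (log2 fold change 3.90 ± 0.49 SE, limma adjusted p = 9.9e-05). Pdgfa was at 11.6 and 16.0 CPM without and 34.0 and 39.3 CPM with TGFβ (1.36 ± 0.25, SE). Both encode ligands of the platelet-derived growth factor receptors, of which Pdgfra was given with the markers. Pdgfrb was at 0.039 and 0 CPM without and 1.85 and 1.14 CPM with TGFβ (1.28 ± 0.39, limma adjusted p = 0.062). The ephrin receptor Ephb2 (2.10 ± 0.24), the neuropilins Nrp1 (1.78 ± 0.49) and Nrp2 (1.46 ± 0.30) and Fgfr2 (1.34 ± 0.35) completed the 6. The Pdgfa call was lost without untreated replicate 1 (limma adjusted p = 0.065), and the Nrp1 call without any 1 of the 4 libraries (limma adjusted p = 0.084 to 0.35). Of 17 Notch pathway genes 2 rose. The receptor Notch4 was at 0.5 and 0.3 CPM without and 22.1 and 15.7 CPM with TGFβ (log2 fold change 3.81 ± 0.21 SE, limma adjusted p = 4.9e-08). The ligand Jag1 was at 7.14 and 11.7 CPM without and 52.5 and 135 CPM with TGFβ (log2 fold change 3.07 ± 0.65 SE, limma adjusted p = 0.0086). The Jag1 call was lost without treated replicate 2 (limma adjusted p = 0.12) or untreated replicate 1 (limma adjusted p = 0.11). Notch1 and the target Hes1 were not called. The Nrp2 call was lost without treated replicate 2 or untreated replicate 1 (limma adjusted p = 0.078 to 0.14). The Fgfr2 call was lost without any 1 of the 4 libraries (limma adjusted p = 0.11 to 0.2). Pdgfa, Jag1 and Nrp2 lost the call in the fit of the 4 samples alone (limma adjusted p = 0.06 to 0.091). Pdgfrb gained a call in the fit of the 4 samples alone (limma adjusted p = 0.042). Nrp1 lost the call without the filter on low values (limma adjusted p = 0.056).

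Of 28 guidance genes 4 rose, namely the netrin receptor Unc5b (26.6 and 39.3 CPM without and 230.1 and 229.7 CPM with TGFβ, 2.79 ± 0.34, SE), the Robo ligand Slit2 (37.0 and 43.0 CPM without and 149.7 and 127 CPM with TGFβ, 1.76 ± 0.41), Sema5a (1.57 ± 0.36) and Robo1 (1.14 ± 0.30). The Slit2 call was lost without any 1 of the 4 libraries (limma adjusted p = 0.061 to 0.13). That of Sema5a was lost without treated replicate 1 (limma adjusted p = 0.19), untreated replicate 1 (limma adjusted p = 0.085) or untreated replicate 2 (limma adjusted p = 0.11). Among 31 chemokines and cytokines, Cxcl12, the ligand of Cxcr4, rose (1 and 0.99 CPM without and 62.4 and 47.1 CPM with TGFβ, log2 fold change 4.79 ± 0.30 SE, limma adjusted p = 1.4e-07). The neutrophil chemokine Cxcl5 fell (3.36 and 13.7 CPM without and 0.31 and 0.33 CPM with TGFβ, log2 fold change -2.60 ± 0.58 SE, limma adjusted p = 0.012). The Cxcl5 call was lost without treated replicate 1 (limma adjusted p = 0.07), treated replicate 2 (limma adjusted p = 0.071) or untreated replicate 2 (limma adjusted p = 0.18). Il11 was at 1 and 0.76 CPM without and 0.93 and 1.06 CPM with TGFβ and was not called. Of 5 IGF binding proteins, Igfbp7 rose (14.6 and 24.5 CPM without and 167 and 224 CPM with TGFβ, log2 fold change 3.29 ± 0.35 SE, limma adjusted p = 2.3e-05). Igfbp2 fell (67.4 and 79.9 CPM without and 22.5 and 4.1 CPM with TGFβ, -2.76 ± 0.66, SE). The Igfbp2 call was lost without treated replicate 2 (limma adjusted p = 0.26), untreated replicate 1 (limma adjusted p = 0.1) or untreated replicate 2 (limma adjusted p = 0.12) and in edgeR. Igfbp5 was at 14305 and 13602 CPM without and 25784 and 11284 CPM with TGFβ and was not called. The Robo1 call was lost without any 1 of the 4 libraries (limma adjusted p = 0.065 to 0.27). Cxcl5, Igfbp2, Sema5a and Robo1 lost the call in the fit of the 4 samples alone (limma adjusted p = 0.069 to 0.13). Robo1 lost the call in edgeR and without the filter on low values (limma and edgeR adjusted p = 0.053 to 0.07). Igfbp2 and Robo1 lost the call with a pseudocount of 0.1 (limma adjusted p = 0.054 to 0.071).

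Several lists held few or no calls, beside 4.98% called among all genes tested. Whether the counts of these small lists differ from that share was not tested. The list of keratinocyte-type differentiation is given with them, although its share of calls was above 4.98%. Among 38 interferon-stimulated genes limma called none, 1 had an unadjusted p under 0.05, and edgeR called none. Isg15 was at 29.2 and 41.5 CPM without and 51.5 and 73.1 CPM with TGFβ. Among 33 genes of cholesterol and fatty acid synthesis limma called none, 1 had an unadjusted p under 0.05, and edgeR called none. Of 30 genes of glycolysis and hypoxia, 1 fell, the prolyl hydroxylase Egln3 (45.2 and 47.2 CPM without and 7.23 and 4.84 CPM with TGFβ, log2 fold change -2.77 ± 0.48 SE, limma adjusted p = 0.0019). Of 28 genes of chaperones and the stress response of the endoplasmic reticulum 1 rose, the factor Creb3l2, which drives secretory genes (8.61 and 14.4 CPM without and 38.8 and 45.3 CPM with TGFβ, log2 fold change 1.82 ± 0.30 SE, limma adjusted p = 0.0013). Of 23 immediate early genes, Egr3 fell (28.4 and 34.4 CPM without and 9.39 and 5.46 CPM with TGFβ, -1.98 ± 0.38, SE), and its call was lost without treated replicate 2 (limma adjusted p = 0.068). Of 25 genes of keratinocyte-type differentiation 2 fell, the secreted protease Klk10 (58.1 and 53.3 CPM without and 0.88 and 1.28 CPM with TGFβ, log2 fold change -4.77 ± 0.42 SE, limma adjusted p = 3.4e-06) and S100a14 (-2.13 ± 0.45), and Lce1g rose (2.13 ± 0.60). The S100a14 call was lost without treated replicate 2 (limma adjusted p = 0.067), untreated replicate 1 (limma adjusted p = 0.079) or untreated replicate 2 (limma adjusted p = 0.054). That of Lce1g was lost without treated replicate 2 (limma adjusted p = 0.36), untreated replicate 1 (limma adjusted p = 0.25) or untreated replicate 2 (limma adjusted p = 0.16). Lce1g, Creb3l2 and Egr3 lost the call in the fit of the 4 samples alone (limma adjusted p = 0.055 to 0.081). Lce1g lost the call without the filter on low values (limma adjusted p = 0.068).

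The response of D164A/- cells was next compared with that of fl/fl cells, the control of the study. Limma called 965 genes in fl/fl cells (7.5% of those tested, 4.06% higher and 3.44% lower) and 589 in D164A/fl cells (4.58%, 3.37% higher and 1.2% lower). Of the genes that rose in D164A/- cells, 141 also rose in fl/fl cells, 32.0% of the 441 and 27.0% of the 522 genes that rose in fl/fl cells. For genes that fell, 32 were shared, 16.0% of the 200 and 7.22% of the 443. In D164A/fl cells 187 of the rises were shared (42.4% of the 441 and 43.1% of 434), and 23 of the falls (11.5% of the 200 and 14.8% of 155). Rising in all 3 genotypes were 87 genes, among them Fn1, Tnc, Ccn2, Mmp12, Smad7, Col1a1 and Igfbp7, and falling in all 3 were 9 genes, among them Cldn1, Ppl, Cxcl5, Klk10 and S100a14. A call in one genotype and not in another does not show that the responses differ, and the differences themselves were tested as interactions.

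The difference in response between D164A/- and fl/fl cells was called for 664 genes, 5.16% of those tested, with 367 (2.85%) above and 297 (2.31%) below the fl/fl response. The difference between D164A/- and D164A/fl cells was called for 124 genes, 0.964% of those tested, with 55 above (0.427%) and 69 below (0.536%). These 2 comparisons share the D164A/- samples. The counts were 372 and 11 with edgeR, and 395 and 34 without untreated D164A/- replicate 1. With a pseudocount of 0.1 the count against D164A/fl cells was 40. Of the 804 list genes, 116 were called in the difference from fl/fl cells and 23 in the difference from D164A/fl cells.

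Cdh2 was already at 55.2 and 51.7 CPM in untreated fl/fl cells and at 55.8 and 54.7 CPM with TGFβ, and the treated D164A/- cells, at 51.9 and 47.8 CPM, came to about this level from 3.94 and 3.96 CPM. The response differed by 3.31 ± 0.38 (SE; limma adjusted p = 6.5e-05). Cxcl12 was at 0.16 and 0.037 CPM without and 1.02 and 1.1 CPM with TGFβ in fl/fl cells and at 0.85 and 0.74 CPM without and 8.13 and 8.19 CPM with TGFβ in D164A/fl cells. Its response was larger in D164A/- cells than in fl/fl cells by 3.88 ± 0.42 (SE; limma adjusted p = 3.4e-05), and than in D164A/fl cells by 2.44. Tsc22d1 differed by 1.71 from fl/fl and by 1.91 from D164A/fl cells, and Ets1 by 1.23 and 1.83. Tsc22d1 was at 286 and 182 CPM without and 313 and 226 CPM with TGFβ in fl/fl cells. In D164A/fl cells it was at 119 and 123 CPM without and 110 and 136 CPM with TGFβ. Ets1 was at 281 and 275 CPM without and 313 and 302 CPM with TGFβ in fl/fl cells. In D164A/fl cells Ets1 was at 468 and 340 CPM without and 285 and 295 CPM with TGFβ. Both genes were lowest in untreated D164A/- cells. Postn was at 12.7 and 0.26 CPM without and 0.4 and 0.44 CPM with TGFβ in fl/fl cells, where the untreated replicates were far apart, and its response differed by 6.26 ± 1.15 (SE; limma adjusted p = 0.0033). Postn also rose in D164A/fl cells, from 7.57 and 18.6 CPM to 232 and 209 CPM (log2 fold change 4.10). The difference from D164A/fl cells, 0.62 ± 1.15 (SE), was not called. The Ltbp2 response was larger than in fl/fl cells by 2.10 and differed from that in D164A/fl cells by -2.19. Ltbp2 was at 37.3 and 60.9 CPM in untreated D164A/fl cells, below the untreated D164A/- cells at 156 and 229 CPM. Treated D164A/fl cells were at 1493 and 1551 CPM, above the treated D164A/- cells at 1316 and 1288 CPM. The Tsc22d1 difference from fl/fl cells was not called without any 1 of treated replicate 1, untreated replicate 2, treated fl/fl replicate 2 and untreated fl/fl replicate 1 (limma adjusted p = 0.061 to 0.082). The Ets1 difference from fl/fl cells was not called without any 1 of the 8 libraries other than untreated replicate 2 (limma adjusted p = 0.056 to 0.17). The Ltbp2 difference from fl/fl cells was not called without any 1 of untreated replicate 1, treated fl/fl replicate 1 and untreated fl/fl replicate 1 (limma adjusted p = 0.061 to 0.08). The Cxcl12 difference from D164A/fl cells was not called without any 1 of untreated replicate 1, treated D164A/fl replicate 2 and untreated D164A/fl replicate 1 (limma adjusted p = 0.052 to 0.063). The Tsc22d1 difference from D164A/fl cells was not called without any 1 of the 8 libraries other than treated replicate 2 (limma adjusted p = 0.067 to 0.12). The Ets1 difference from D164A/fl cells was not called without untreated replicate 1 or untreated D164A/fl replicate 1 (limma adjusted p = 0.064 to 0.068). The Ltbp2 difference from D164A/fl cells was not called without any 1 of the 8 libraries other than untreated D164A/fl replicate 2 (limma adjusted p = 0.067 to 0.2). Cxcl12 had no called difference from fl/fl cells in edgeR and with a pseudocount of 0.1 (limma and edgeR adjusted p = 0.096 to 0.55). Ets1 had no called difference from fl/fl cells with median of ratios scaling (limma adjusted p = 0.057). Cxcl12, Tsc22d1 and Ltbp2 had no called difference from D164A/fl cells in edgeR (edgeR adjusted p = 0.084 to 0.44). Cxcl12 and Ltbp2 had no called difference from D164A/fl cells with a pseudocount of 0.1 (limma adjusted p = 0.057 to 0.4).

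Cdh1 was at 966 and 782 CPM without and 457 and 302 CPM with TGFβ in fl/fl cells, and the difference in response was 1.72 ± 0.36 (SE; limma adjusted p = 0.0084). Itgb3 was at 3.42 and 1.76 CPM without and 462 and 452 CPM with TGFβ in fl/fl cells, with a difference of -5.26 ± 0.74 (SE; limma adjusted p = 0.00035), and untreated D164A/- cells were already at 144 and 119 CPM. Itga5 was at 53.8 and 62.1 CPM without and 526 and 777 CPM with TGFβ in fl/fl cells, a difference of -2.50 ± 0.33 (SE; limma adjusted p = 0.00019). Il11, a cytokine of the interleukin 6 family, was at 2.94 and 3.41 CPM without and 116 and 264 CPM with TGFβ in fl/fl cells, a difference of -5.32 ± 0.48 (SE; limma adjusted p = 5.7e-06). Fst was at 136 and 151 CPM without and 1.24 and 1.62 CPM with TGFβ in fl/fl cells and at 135 and 139 CPM without and 13.8 and 27.1 CPM with TGFβ in D164A/fl cells, and the differences were 6.55 and 3.40. The lysyl oxidase Loxl2 was at 0 and 0 CPM without and 9.18 and 11.5 CPM with TGFβ in fl/fl cells (-3.19), and Col5a3, a fibrillar collagen, at 2.13 and 1.35 CPM without and 147 and 274 CPM with TGFβ (-6.19). The plot of selected genes in the 3 genotypes gives these responses with their errors. The Cdh1 difference from fl/fl cells was not called without treated fl/fl replicate 2 (limma adjusted p = 0.053). The Fst difference from D164A/fl cells was not called without any 1 of untreated replicate 1, treated D164A/fl replicate 1 and untreated D164A/fl replicate 1 (limma adjusted p = 0.056 to 0.064). Loxl2 and Col5a3 had no called difference from fl/fl cells in edgeR (edgeR adjusted p = 0.067 to 1). Fst had no called difference from D164A/fl cells in the fit of the 8 samples alone and in edgeR (limma and edgeR adjusted p = 0.054 to 0.064).

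**Figure D4:**
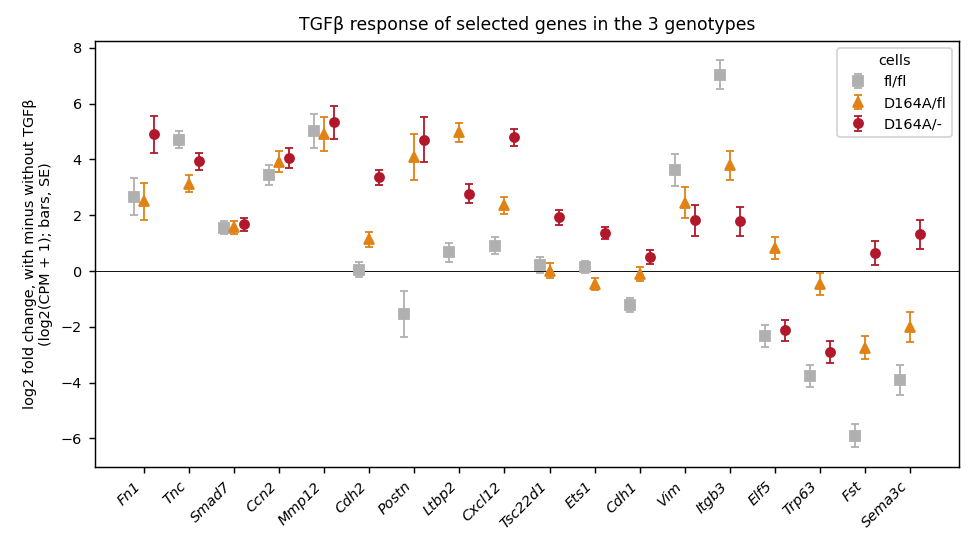
Log2 fold change with minus without TGFβ (y axis, on log2(CPM + 1)) of 18 genes in fl/fl (grey squares), D164A/fl (orange triangles) and D164A/- cells (red circles), 2 samples with and 2 without TGFβ each; bars are standard errors of the limma fit. Fn1, Tnc, Smad7, Ccn2 and Mmp12 rose in the 3 genotypes, whereas Fst is at -5.90 in fl/fl, -2.75 in D164A/fl and 0.65 in D164A/- cells.

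Of 44 junction genes, 6 had a more positive response in D164A/- than in fl/fl cells and none a more negative one, whereas in fl/fl cells 14 of them fell. Of 23 milk and luminal genes, 8 had a more negative response than in fl/fl cells. Of these, Csn2, Csn1s2a and Lalba were at 0 in the 4 fl/fl samples and Csn1s1 and Kit at or under 0.20 CPM there, so that they could not fall in fl/fl cells. Elf5 fell in fl/fl cells too, from 6.44 and 5.88 to 0.49 and 0.37 CPM. It was not called in D164A/fl cells, at 7.11 and 13.4 CPM without and 15.8 and 20.6 CPM with TGFβ. Its response differed by -2.95 ± 0.55 (SE; limma adjusted p = 0.016) between D164A/- and D164A/fl cells. Trp63 was at 37.1 and 52.3 CPM without and 26.1 and 38.7 CPM with TGFβ in D164A/fl cells, a difference of -2.44 ± 0.55 (SE; limma adjusted p = 0.047), and at 113 and 71.1 CPM without and 4.97 and 6.55 CPM with TGFβ in fl/fl cells. Cdkn2b was at 0 and 0.41 CPM without and 0 and 0 CPM with TGFβ in fl/fl cells, so that the difference of 3.31 sets a rise against a gene without detected transcripts in 3 of 4 samples. Across the 12868 genes, the response of D164A/- cells had a Pearson correlation of 0.34 with that of fl/fl cells and of 0.56 with that of D164A/fl cells. Genes are not independent replicates, and these values are descriptions. The Spearman correlation of the response with GC content was 0.30 in D164A/-, 0.37 in D164A/fl and 0.00056 in fl/fl cells. The part of GC content in the Pearson values was not tested. The Elf5 difference from D164A/fl cells was not called without any 1 of treated replicate 2, untreated replicate 1, treated D164A/fl replicate 2 and untreated D164A/fl replicate 1 (limma adjusted p = 0.092 to 0.11). The Trp63 difference from D164A/fl cells was not called without any 1 of the 8 libraries other than treated replicate 1 (limma adjusted p = 0.065 to 0.24). Elf5 and Trp63 had no called difference from D164A/fl cells in edgeR and with a pseudocount of 0.1 (limma and edgeR adjusted p = 0.065 to 0.11). Trp63 had no called difference from D164A/fl cells without the filter on low values and with the GC trend removed (limma adjusted p = 0.0501 to 0.12).

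**Figure D5:**
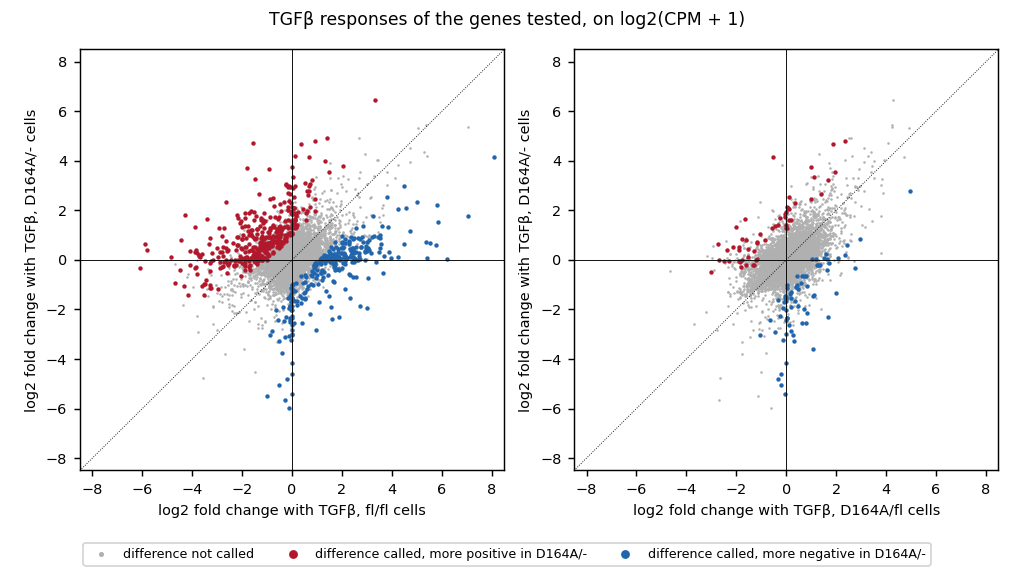
Log2 fold change with TGFβ in D164A/- cells (y axis) against fl/fl cells (left, x axis) and D164A/fl cells (right, x axis) for 12868 genes on log2(CPM + 1), with the dotted line at equality. Red and blue points are genes whose difference was called, above (367 and 55) or below (297 and 69) the other genotype, and grey points are the rest.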

How the data were processed

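The 56 libraries came from RNA of MMTV-PyMT tumor cell lines, and 24 of them, those of fl/fl, D164A/fl and D164A/- cells in the TGFβ and Wnt3a experiments, entered the fit in 12 conditions. Per the labels, the authors' processing named STAR and mm10. The authors deposited 1 table of 20314 Entrez genes, headed as CPM, and its values are a signal scaled to an effective library size, since the columns have different sums. Each deposited value was a whole multiple of what 1 read was worth (100% of values within 0.001 reads), which gave the reads and the depth. The design had assumed CPM, and the test stayed the same. Intervals of counting are not given, and the floor of 3 reads covers counting error only.

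Values were analysed as log2(CPM + 1) with limma 3.58.1 (trend) in R 4.3.3, in 12868 genes that reached 1 CPM in 2 or more samples, and calls needed an adjusted p of 0.05 or less with a log2 fold change of 1 or more in size. The fit was run on simulated counts with 50 genes changed at each fold. It called 2 of them at 1.5-fold, 25 at 2-fold, 50 at 4-fold and 50 at 8-fold. The simulation gave all groups the same means apart from the changed genes, and all genes the same dispersion. It therefore does not measure recovery in the real samples, whose conditions and replicates differ more. Fits were repeated with a pseudocount of 0.1, without the filter, with median of ratios scaling, edgeR 4.0.16 on whole reads, the compared samples alone, a replicate block, removal of the trend with GC content, and each replicate left out. Members, gene lists and tests were chosen with earlier results of these data known. Named genes were those set as anchors, the 3 largest rises and falls of each list and the 8 largest overall among called genes without overlap, and the 6 most positive and negative differences in each interaction. Others, such as the further members of lists and the genes of opposite direction, were named after their values were seen. A few list members are counted but not reported here by name. Promoters and gene positions are from RefSeq in GRCm38.p6.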

Additional observations from a re-analysis of the deposited data

Results flagged for a closer look

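The results given here are those where the TGFβ response differed between D164A/- cells and another genotype by the interaction term in limma. Each group held 2 samples, too few to look for single outlying samples. There were 664 such genes against fl/fl cells and 124 against D164A/fl cells, and the genes named are those that the rules for named genes select, with Ltbp2, Tsc22d1, Ets1, Elf5 and Trp63 added after their values were seen. For each gene the log2 fold change with TGFβ in D164A/- cells is followed by that in the other genotype and by the difference, on the scale of log2(CPM + 1).

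Against fl/fl cells, the response was more positive in D164A/- cells for the activin antagonist Fst (0.65 against -5.90, difference 6.55), the Ras association domain protein Rassf4 (0.42 against -5.81, difference 6.23), the periostin gene Postn (4.71 against -1.55, difference 6.26), the membrane metalloendopeptidase Mme (1.83 against -4.30, difference 6.13), the ferritin receptor Scara5 (-0.33 against -6.10, difference 5.77) and the matricellular gene Ccn5 (3.72 against -1.82, difference 5.55). The transglutaminase Tgm1 (0.37 against -4.07, difference 4.44), the chemokine Cxcl12 (4.79 against 0.91, difference 3.88), N-cadherin Cdh2 (3.36 against 0.05, difference 3.31), E-cadherin Cdh1 (0.50 against -1.22, difference 1.72) and Bmp4 (0.08 against -1.63, difference 1.71) followed. Cdkn2b (3.06 against -0.25, difference 3.31) rests on a gene near 0 in fl/fl cells. Ltbp2 (2.78 against 0.67, difference 2.10), Tsc22d1 (1.93 against 0.22, difference 1.71) and the ETS factor Ets1 (1.37 against 0.15, difference 1.23) also had a more positive response. The Cdh1 difference was not called without treated fl/fl replicate 2 (limma adjusted p = 0.053). The Ltbp2 difference was not called without any 1 of untreated replicate 1, treated fl/fl replicate 1 and untreated fl/fl replicate 1 (limma adjusted p = 0.061 to 0.08). The Tsc22d1 difference was not called without any 1 of treated replicate 1, untreated replicate 2, treated fl/fl replicate 2 and untreated fl/fl replicate 1 (limma adjusted p = 0.061 to 0.082). The Ets1 difference was not called without any 1 of the 8 libraries other than untreated replicate 2 (limma adjusted p = 0.056 to 0.17). Bmp4 and Cxcl12 had no called difference from fl/fl cells in edgeR (edgeR adjusted p = 0.092 to 0.55). Cxcl12 had no called difference from fl/fl cells with a pseudocount of 0.1 (limma adjusted p = 0.096). Ets1 had no called difference from fl/fl cells with median of ratios scaling (limma adjusted p = 0.057).

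The response was more negative than in fl/fl cells for the collagen Col5a3 (0.03 against 6.22, difference -6.19), the casein genes Csn1s1 (-5.99 against -0.11, difference -5.88), Csn1s2a (-5.42 against 0.00, difference -5.42) and Csn2 (-4.61 against 0.00, difference -4.61), the nucleoside transporter Slc28a3 (-5.64 against -0.27, difference -5.37), the cytokine Il11 (0.09 against 5.40, difference -5.32) and the integrin subunit Itgb3 (1.78 against 7.03, difference -5.26). The same held for Csn3 (-1.92 against 3.00, difference -4.92), Mmp9 (4.14 against 8.08, difference -3.94), Loxl2 (0.31 against 3.50, difference -3.19), Snai2 (-1.26 against 1.37, difference -2.64), the BH3 protein Bmf (1.32 against 3.85, difference -2.53), Itga5 (0.95 against 3.44, difference -2.50), Cdh5 (0.03 against 1.94, difference -1.92), the hexokinase Hk2 (-0.47 against 1.29, difference -1.76) and Pdgfa (1.36 against 2.82, difference -1.46). The Csn1s1, Csn1s2a and Csn2 levels in fl/fl cells were between 0 and 0.20 CPM. Col5a3 was at or under 0.044 CPM in D164A/- cells, Cdh5 was at or under 0.037 CPM there, and Loxl2 stayed under 1 CPM there. The differences of these genes set a change in one genotype against a gene close to 0 in the other. Mmp9 went from 0.039 and 0.076 to 7.01 and 42.6 CPM in D164A/- cells and from 5.35 and 7.04 to 1922 and 1949 CPM in fl/fl cells, and its difference had the opposite sign, 0.36, in edgeR. The Csn1s1 difference was not called without treated replicate 2 or untreated replicate 1 (limma adjusted p = 0.057 to 0.058). The Csn3 difference was not called without any 1 of the 8 libraries (limma adjusted p = 0.053 to 0.1). The Mmp9 difference was not called without any 1 of the 8 libraries other than treated replicate 2 and untreated fl/fl replicate 2 (limma adjusted p = 0.069 to 0.11). The Snai2 difference was not called without any 1 of the 8 libraries other than treated replicate 2, treated fl/fl replicate 2 and untreated fl/fl replicate 1 (limma adjusted p = 0.067 to 0.13). The Bmf difference was not called without any 1 of the 8 libraries other than untreated replicate 2 and untreated fl/fl replicate 2 (limma adjusted p = 0.064 to 0.22). The Hk2 difference was not called without any 1 of treated replicate 1, untreated replicate 2, treated fl/fl replicate 1 and untreated fl/fl replicate 2 (limma adjusted p = 0.08 to 0.1). The Pdgfa difference was not called without any 1 of the 8 libraries other than treated replicate 2 and untreated replicate 1 (limma adjusted p = 0.0504 to 0.11). Snai2, Mmp9 and Hk2 had no called difference from fl/fl cells in the fit of the 8 samples alone (limma adjusted p = 0.054 to 0.071). Loxl2, Csn2, Bmf, Cdh5, Csn1s1, Csn1s2a and Col5a3 had no called difference from fl/fl cells in edgeR (edgeR adjusted p = 0.067 to 1). Mmp9 and Bmf had no called difference from fl/fl cells with a pseudocount of 0.1 (limma adjusted p = 0.064 to 0.79). Bmf had no called difference from fl/fl cells without the filter on low values (limma adjusted p = 0.059).

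Against D164A/fl cells, the response was more positive in D164A/- cells for Arhgap22 (4.14 against -0.54, difference 4.68), Fst (0.65 against -2.75, difference 3.40), the semaphorin Sema3c (1.31 against -2.00, difference 3.32), the stress gene Gadd45b (1.66 against -1.64, difference 3.30), Col10a1 (4.69 against 1.89, difference 2.80), the proteoglycan Ogn (3.77 against 1.01, difference 2.76), Cxcl12 (4.79 against 2.35, difference 2.44), Cdh2 (3.36 against 1.13, difference 2.23), p21, Cdkn1a (0.73 against -1.19, difference 1.92), Tsc22d1 (1.93 against 0.01, difference 1.91) and Ets1 (1.37 against -0.46, difference 1.83). It was more negative for Csn1s2a (-5.42 against -0.04, difference -5.37), Them5 (-5.07 against -0.19, difference -4.87), the protocadherin-like Fat2 (-3.58 against 1.08, difference -4.65), Krt15 (-4.82 against -0.33, difference -4.49), Csn2 (-4.61 against -0.19, difference -4.42), the cathepsin Ctsr (-4.15 against 0.00, difference -4.15), Elf5 (-2.13 against 0.82, difference -2.95), Trp63 (-2.90 against -0.46, difference -2.44) and Ltbp2 (2.78 against 4.97, difference -2.19). Ctsr was at 0 in the 4 D164A/fl samples, Csn2 and Csn1s2a were at or under 0.35 CPM there, and Krt15 and Them5 were at or under 0.80 CPM. Arhgap22 started lower in D164A/- cells, at 1.43 and 2.63 CPM without TGFβ, against 44.3 and 26.6 CPM in D164A/fl cells. With TGFβ it was at 55.0 and 48.2 CPM in D164A/- and at 21.8 and 24.9 CPM in D164A/fl cells. With edgeR 11 genes were called in this comparison, among them Arhgap22, Cdh2, Ets1, Fat2 and Gadd45b of the genes named here. The Fst difference was not called without any 1 of untreated replicate 1, treated D164A/fl replicate 1 and untreated D164A/fl replicate 1 (limma adjusted p = 0.056 to 0.064). The Sema3c difference was not called without any 1 of the 8 libraries (limma adjusted p = 0.071 to 0.2). The Gadd45b difference was not called without any 1 of treated replicate 2, untreated replicate 1, treated D164A/fl replicate 2 and untreated D164A/fl replicate 1 (limma adjusted p = 0.052 to 0.07). The Col10a1 difference was not called without any 1 of untreated replicate 1, treated D164A/fl replicate 2 and untreated D164A/fl replicate 1 (limma adjusted p = 0.065 to 0.079). The Cxcl12 difference was not called without any 1 of untreated replicate 1, treated D164A/fl replicate 2 and untreated D164A/fl replicate 1 (limma adjusted p = 0.052 to 0.063). The Cdh2 difference was not called without any 1 of untreated replicate 1, treated D164A/fl replicate 1 and untreated D164A/fl replicate 1 (limma adjusted p = 0.051 to 0.07). The Cdkn1a difference was not called without any 1 of the 8 libraries (limma adjusted p = 0.066 to 0.24). The Tsc22d1 difference was not called without any 1 of the 8 libraries other than treated replicate 2 (limma adjusted p = 0.067 to 0.12). The Ets1 difference was not called without untreated replicate 1 or untreated D164A/fl replicate 1 (limma adjusted p = 0.064 to 0.068). The Csn1s2a difference was not called without any 1 of treated replicate 2, untreated replicate 1, treated D164A/fl replicate 2 and untreated D164A/fl replicate 1 (limma adjusted p = 0.056 to 0.075). The Fat2 difference was not called without any 1 of untreated replicate 1, treated D164A/fl replicate 2 and untreated D164A/fl replicate 1 (limma adjusted p = 0.059 to 0.078). The Krt15 difference was not called without any 1 of the 8 libraries other than treated replicate 1 and untreated D164A/fl replicate 2 (limma adjusted p = 0.06 to 0.13). The Elf5 difference was not called without any 1 of treated replicate 2, untreated replicate 1, treated D164A/fl replicate 2 and untreated D164A/fl replicate 1 (limma adjusted p = 0.092 to 0.11). The Trp63 difference was not called without any 1 of the 8 libraries other than treated replicate 1 (limma adjusted p = 0.065 to 0.24). The Ltbp2 difference was not called without any 1 of the 8 libraries other than untreated D164A/fl replicate 2 (limma adjusted p = 0.067 to 0.2). Fst and Col10a1 had no called difference from D164A/fl cells in the fit of the 8 samples alone (limma adjusted p = 0.064 to 0.12). Fst, Cdkn1a, Cxcl12, Csn2, Krt15, Col10a1, Csn1s2a, Them5, Ctsr, Sema3c, Ogn, Tsc22d1, Ltbp2, Elf5 and Trp63 had no called difference from D164A/fl cells in edgeR (edgeR adjusted p = 0.054 to 1). Cdkn1a, Cxcl12, Krt15, Col10a1, Csn1s2a, Sema3c, Ogn, Ltbp2, Elf5 and Trp63 had no called difference from D164A/fl cells with a pseudocount of 0.1 (limma adjusted p = 0.057 to 0.4). Sema3c and Trp63 had no called difference from D164A/fl cells without the filter on low values (limma adjusted p = 0.0501 to 0.051). Cdkn1a and Sema3c had no called difference from D164A/fl cells with median of ratios scaling (limma adjusted p = 0.051 to 0.053). Cdkn1a, Ogn and Trp63 had no called difference from D164A/fl cells with the GC trend removed (limma adjusted p = 0.074 to 0.19).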

How the results depend on the processing

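The number of genes called in D164A/- cells, 641, stayed within 1.5 times under a pseudocount of 0.1 (745), no filter (579), median of ratios scaling (696), edgeR (677), removal of the GC trend (781) and removal of the GC trend with the replicate block (959), and was 387 in the fit of the 4 compared samples and 998 with the replicate block. Leaving out 1 library gave 291 to 478. The difference from fl/fl cells, 664 genes, was 372 in edgeR, 1268 with the block, 1414 with the GC trend removed and the block, and 395 to 574 without 1 library. Its share of more positive calls went from 55.3% to 73.9% in edgeR. The difference from D164A/fl cells, 124 genes, was 40 with a pseudocount of 0.1, 11 in edgeR, 209 in the compared samples alone, 551 with the block, 738 with the GC trend removed and the block, and 33 to 104 without 1 library. Of the list genes, 119 were called in D164A/- cells, against 183 with the block, 191 with the GC trend removed and the block, and 64 to 94 without 1 library. For the difference from fl/fl cells these were 116, against 64 in edgeR, 202, 228 and 66 to 103, and for the difference from D164A/fl cells 23, against 9 with a pseudocount of 0.1, 2 in edgeR, 38 in the compared samples alone, 103 with the block, 37 with the GC trend removed, 145 with both, and 3 to 17. The block, the replicate number, was not counted as a pairing, since the labels do not say that equal numbers share a line or day. Deviations of equal numbers correlated across genes at 0.34 in D164A/-, 0.66 in fl/fl and 0.59 in D164A/fl cells, and with 2 replicates a group every sample has 1 partner. With the block no result on a named gene lost its call and 17 gained one, among them the responses of Pmepa1, Inhba, Snai2, Cldn4, Krt5, Vim, Col5a1, Sparc, Itgb3, Mki67, Ccn1, Ankrd1, Pdgfrb, Csn3, Prlr and Bmf (limma adjusted p = 0.0002 to 0.033). The cause of these shifts was not tested.

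Of 265 results on named genes, 140 kept their direction and their side of the threshold under every alternative run. In the fit of the compared samples alone 52 lost the call and 6 gained one, and in edgeR 33 lost it and 2 gained one. The difference of Mmp9 from fl/fl cells turned from -3.94 to 0.36 in edgeR. The difference between replicates followed GC content, with Spearman correlations across genes of 0.35 in untreated and -0.43 in treated D164A/- cells. The response of D164A/- cells correlated with GC content at 0.30. Its difference from the fl/fl response did so at 0.24, and that from the D164A/fl response at -0.15. The part of GC content in the results was not tested beyond the removal of the trend. At this depth, levels under 3 reads (0.11 to 0.13 CPM) were not told apart from 0.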

Other observations

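Genes called in opposite directions with TGFβ in D164A/- and fl/fl cells were counted, each genotype with its own samples. Of the genes called in both, among 12868 tested, 26 rose in D164A/- and fell in fl/fl cells, and 4 fell in D164A/- and rose in fl/fl cells. Beside these, 141 rose in both and 32 fell in both. Between D164A/- and D164A/fl cells, 2 rises and 2 falls of D164A/- cells were called in the opposite direction. The genes named here were chosen after their values were seen and are given as a description. Kif27, a kinesin of the kinesin-4 family, was at 4.79 and 3.69 CPM without and 16.7 and 17.9 CPM with TGFβ in D164A/- cells and at 36.1 and 27.4 CPM without and 5.37 and 6.88 CPM with TGFβ in fl/fl cells. Nme5 was at 1.89 and 2.21 CPM without and 8.99 and 8.58 CPM with TGFβ in D164A/- and 25.3 and 17.0 CPM without and 4.04 and 3.68 CPM with TGFβ in fl/fl cells. Iqcg, Enkur, Kif9 and Armc2, genes with known roles in the flagella of sperm or in motile cilia, rose in D164A/- cells by log2 fold changes of 1.97, 1.61, 1.23 and 1.01, against -1.66, -1.26, -1.61 and -1.74 in fl/fl cells. Their untreated levels in D164A/- cells were low, at 0.50 and 1.49, 0.69 and 0.95, 1.85 and 3.24, and 0.12 and 0.65 CPM in this order. Cilia genes were not among the lists, and the share of them that changed was not counted. In D164A/fl cells the same 4 genes had log2 fold changes of 1.77, 0.60, 1.402 and 1.33, and Kif27 and Nme5 rose there by 2.54 and 1.76. The vitamin D receptor Vdr (1.38 against -1.78), the membrane protein Emp1 (1.68 against -1.25) and Cd93 (2.33 against -2.64) also rose in D164A/- and fell in fl/fl cells. In D164A/fl cells Vdr rose by 1.84, whereas Emp1 (-0.26) and Cd93 (0.25) were not called. Apln, the ligand of the apelin receptor, was at 27.3 and 29.6 CPM without and 4.41 and 5.75 CPM with TGFβ in D164A/- cells and at 5.27 and 17.7 CPM without and 37.8 and 40.0 CPM with TGFβ in fl/fl cells. Podxl, or podocalyxin, was at 190.1 and 145 CPM without and 58.9 and 61.9 CPM with TGFβ in D164A/- cells and at 6.04 and 3.18 CPM without and 17.5 and 11.2 CPM with TGFβ in fl/fl cells. In D164A/fl cells Apln rose by a log2 fold change of 1.66 and Podxl was not called (-0.31).

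Untreated D164A/- cells were also cultured for 3 days as the controls of the Wnt3a experiment, and their levels differed from those of the untreated cells of the TGFβ experiment, which were cultured for 4 days. Csn1s1 was at 262 and 56.7 CPM in the former and 1229.7 and 704 CPM in the latter, Muc15 at 166 and 32.6 CPM and 443 and 268 CPM, and Csn3 at 2662 and 545 CPM and 5387 and 4582 CPM. Fn1 was at 466 and 1049.8 CPM and 80.4 and 259.8 CPM, and Tnc at 555 and 887 CPM and 175 and 259 CPM. Fst was at 61.6 and 51.8 CPM and 8.72 and 21.3 CPM. Mki67, at 932 and 163 CPM, was far apart between the 2 replicates of the Wnt3a experiment and close, at 1102 and 897 CPM, between those of the TGFβ experiment. The levels of Cdh2, at 4.99 and 3.04 CPM and 3.94 and 3.96 CPM, lay close together in both. Treated cells stood outside both sets of untreated cells for Csn1s1, with 25.1 and 7.22 CPM, for Fn1, with 2535 and 7494 CPM, and for Tnc, with 2599.7 and 4153 CPM. For Csn3, the treated values of 1565 and 1099 CPM lay within the range of the untreated cells of the Wnt3a experiment.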
